A study of Mus musculus with 6 samples.

Results

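The Kruppel-like factor (KLF) genes of mouse embryonic stem (ES) cells are described here: Klf2, Klf3, Klf4, Klf5, Klf6, Klf7, Klf9, Klf10, Klf12 and Klf13. The members were 10 genes of 18193 measured, read by every probe set that the platform annotation assigned to one of these symbols alone, 38 probe sets of 45037. The samples were 3 arrays of Med23 knockout ES cells and 3 arrays of wild-type ES cells. Both groups were of strain 129SV and were collected 24 hours after a change to fresh complete medium. Med23 is a subunit of Mediator, which connects DNA-bound activators with the transcription machinery. The labels call the arrays of a group biological replicates and do not say how many clones they came from, so the p-values measure only the spread between these cultures. The deposited values were read as log2 expression values from their range, since the log base is not stated.

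KLF proteins bind GC-rich and CACCC-type DNA through zinc fingers at their C-terminal end. Klf2, Klf4 and Klf5 belong to the network that keeps mouse ES cells in the naive, self-renewing state. Klf6 and Klf7 are, like those, mostly activators. Klf3 and Klf12 recruit the CtBP corepressors, and Klf9, Klf10 and Klf13 recruit the SIN3 corepressor complex. Klf4, Klf6 and Klf10 are known to be induced by serum or growth factors in some cell types.

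The upstream sequences of the KLF genes with the largest changes in their brightest probe sets are shown because KLF factors bind DNA of this kind themselves. Of the 10 members, 8 were matched by symbol in the RefSeq promoter table of the GRCm38.p6 build. The windows hold the 250 bases before the gene start, written 5′ to 3′ on the strand of the gene. Klf2 (plus strand) is at chr8:72318812-72319061, Klf4 (minus strand) at chr4:55532476-55532725 and Klf12 (minus strand) at chr14:100149797-100150046. Capitals mark GGGCGG (the GC box) and CACCC, searched on both strands, so that CCGCCC and GGGTG are their reverse forms.
Klf2: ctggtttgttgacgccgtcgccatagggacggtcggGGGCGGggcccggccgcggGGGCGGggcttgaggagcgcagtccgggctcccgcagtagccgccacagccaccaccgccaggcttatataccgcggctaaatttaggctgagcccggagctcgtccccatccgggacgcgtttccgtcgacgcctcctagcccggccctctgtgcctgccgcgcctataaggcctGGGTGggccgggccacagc
Klf4: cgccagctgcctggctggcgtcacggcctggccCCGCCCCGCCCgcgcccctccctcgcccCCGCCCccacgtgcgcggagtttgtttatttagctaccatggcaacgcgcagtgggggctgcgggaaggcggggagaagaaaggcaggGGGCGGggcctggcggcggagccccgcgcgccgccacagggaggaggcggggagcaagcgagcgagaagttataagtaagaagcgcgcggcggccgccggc
Klf12: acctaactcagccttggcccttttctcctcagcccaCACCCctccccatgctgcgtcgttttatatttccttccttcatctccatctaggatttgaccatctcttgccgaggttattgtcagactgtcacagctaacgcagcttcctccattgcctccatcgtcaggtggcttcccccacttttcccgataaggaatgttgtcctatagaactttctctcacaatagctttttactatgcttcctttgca
GGGCGG was found 2 times in the Klf2 window and 4 times in the Klf4 window, and CACCC 1 time in each of the Klf2 and Klf12 windows. Across the 8 KLF windows, 6 held GGGCGG and 6 held CACCC, against 32.7% and 52% of all 32851 windows of that length. GCGGGGGCG, a form of the site bound by EGR factors, was in 3 of the 8 (Klf2, Klf3 and Klf4) and in 2.57% of all windows. This motif can overlap GGGCGG. GCGTGGGCG, another form of the EGR site, was in none of the 8 and in 0.536% of all windows. A CArG box, the site bound by serum response factor, was in none of the 8 and in 1.47% of all windows. The Klf12 window was 48% G and C, against a median of 52.4% over all windows. The Klf2, Klf3 and Klf4 windows were 71.2%, 78.4% and 74% G and C. The shares over all windows were not matched for G and C content, which matters for GC-rich motifs. These matches describe letters in a window and were not tested as binding sites.

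The labels were checked on the targeted gene and on ES cell genes. Med23 had values of 7.40, 7.37 and 7.33 (log2) in knockout arrays, against 8.95, 8.86 and 8.84 in wild-type arrays, and the groups did not overlap (log2 fold change -1.52, limma adjusted p = 2.69e-05). Where its probe set lies relative to the deletion was not analysed here. Of 10 ES cell marker genes, all lay in both groups above 4.62, the median over probe sets, called the array median here, 2 fell (Dppa4 and Tdgf1) and 8 did not pass the test. Wild-type replicate 1 stood apart: 752 probe sets were 1 log2 unit or more below the mean of the other wild-type arrays. The Y-linked gene Eif2s3y averaged 9.87 ± 0.15 in knockout arrays and 3.04 ± 0.37 in wild-type arrays (log2; SD, n = 3 each). An effect of Med23 on a KLF gene and another difference between the cell lines cannot be told apart.

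The comparison asks how the KLF family stands in ES cells without Med23. With the brightest probe set per gene, 3 members rose (Klf2, Klf7 and Klf12), 3 fell (Klf4, Klf5 and Klf6) and 4 did not pass the test (Klf3, Klf9, Klf10 and Klf13). Over all genes, 8.53% were called higher and 10.4% lower at an adjusted p under 0.05, 18.9% in either direction. All 10 members lay above the array median, and among genes with a mean above that median 26.7% were called. The median log2 fold change of the 10 members was -0.07, beside 0.02 over all genes. Members thus moved in both directions around a median close to that of all genes. The groups did not overlap in 7 of the 10 members, against 40.9% of all genes, a share that includes the dim genes. The members were chosen with earlier results of these data known, so the counts are a description.

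**Figure D1:**
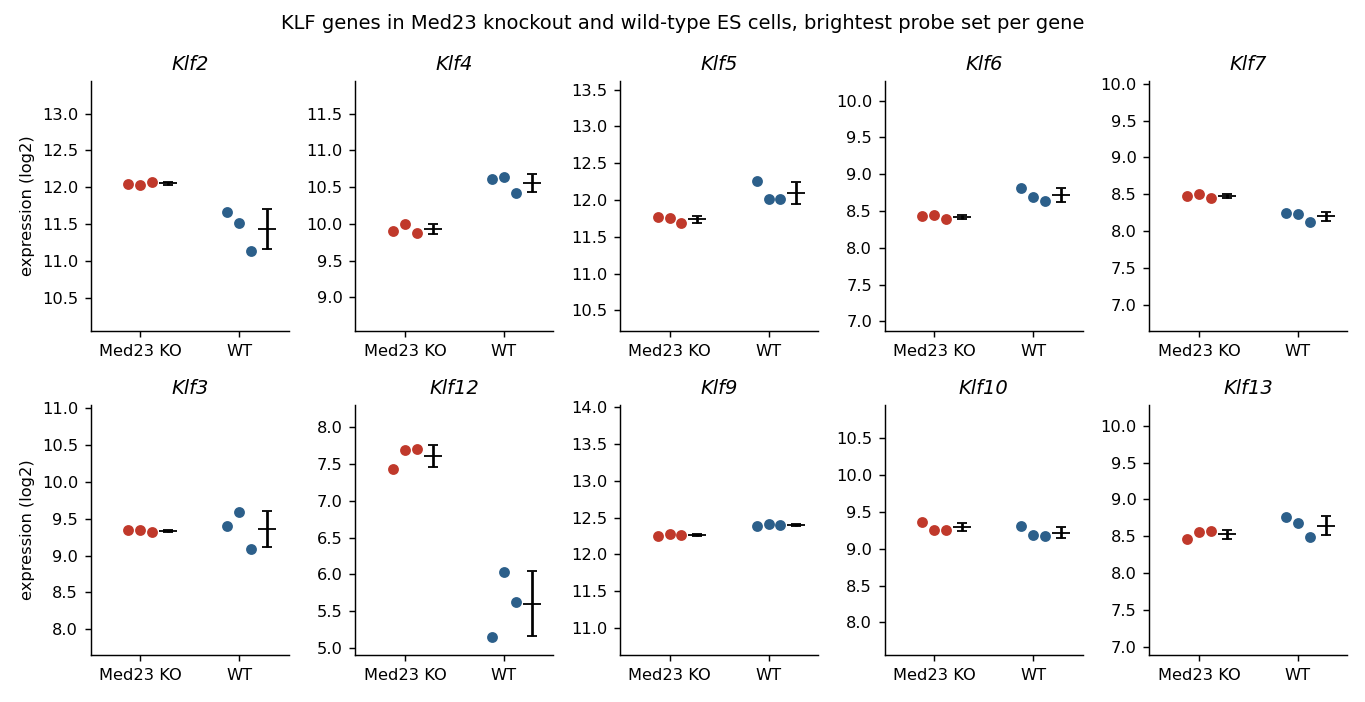
Expression (log2) of the 10 KLF genes on each array, Med23 knockout at left and wild type at right, for the brightest probe set of each gene; points are arrays and the bar beside them is the mean ± SD (n = 3). Every panel spans the same number of log2 units; Klf12 and Klf2 lie higher in all knockout arrays, and Klf4, Klf5 and Klf6 lie lower.

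The naive pluripotency members were split. Klf2, read by 1 probe set, had values of 12.05, 12.03 and 12.08 (log2) in knockout arrays and 11.66, 11.51 and 11.14 in wild-type arrays. All knockout arrays were above all wild-type arrays, and the knockout values lay closer together. Klf2 had a log2 fold change of 0.62 with an SE of 0.13 (limma adjusted p = 0.021) and was 1.53-fold higher. The call of Klf2 ended without wild-type replicate 2 (adjusted p = 0.0561) and without knockout replicate 1, 2 or 3 (adjusted p = 0.0684, 0.0684 and 0.0746), while its log2 fold change stayed between 0.47 and 0.73 over 13 alternatives.

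Klf4, one of the factors used to reprogram somatic cells to pluripotency, had values of 9.902, 10.002 and 9.873 in knockout arrays and 10.616, 10.636 and 10.421 in wild-type arrays. The groups did not overlap. Klf4 had a log2 fold change of -0.63 with an SE of 0.08 (limma adjusted p = 0.00272) and was 1.55-fold lower. A second Klf4 probe set gave 9.52, 9.52 and 9.44 in knockout arrays and 10.28, 10.14 and 9.97 in wild-type arrays, a change of -0.64 log2 units (SE 0.09, limma adjusted p = 0.00384). Both readings of Klf4 thus gave nearly the same size of fall. The fall passed the test under all 14 alternatives, with log2 fold changes from -0.70 to -0.59.

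Klf5, which is needed for normal development of the early embryo and supports ES cell self-renewal, was read by 3 probe sets. The brightest had values of 11.77, 11.75 and 11.69 in knockout arrays and 12.26, 12.01 and 12.01 in wild-type arrays (log2 fold change -0.36, SE 0.09, limma adjusted p = 0.0352). A dimmer one had 7.47, 7.67 and 7.58 in knockout arrays and 8.25, 8.28 and 8.23 in wild-type arrays (log2 fold change -0.68, SE 0.07, limma adjusted p = 0.00115). The groups did not overlap in either, but the sizes differed, so the fall of Klf5 was 1.28-fold or 1.60-fold depending on the probe set. The remaining probe set lay below the array median in both groups and did not pass the test. For the brightest probe set the call ended without wild-type replicate 2 (adjusted p = 0.061) and without knockout replicate 1, 2 or 3 (adjusted p = 0.0901, 0.102 and 0.124).

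Klf2 and Klf4 were set against each other within each array, which removes any shift common to an array. The Klf2 value minus the Klf4 value was 2.15, 2.03 and 2.20 in knockout arrays and 1.04, 0.88 and 0.72 in wild-type arrays. The change in this difference was 1.25 on the log2 scale, larger than the spread within either group (SD 0.09 in the knockout and 0.16 in the wild type, n = 3 each). The pair was chosen as one gene that rose and one that fell, so this change restates their separate changes. An exact permutation test over the 6 arrays gave p = 0.1, the smallest it allows, and no conclusion is drawn from it. Levels of different probe sets are not comparable, so only the change is read.

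Klf6 and Klf7, the remaining activators, moved in opposite directions. Klf6, a widely expressed factor induced early after injury or growth stimulation, was read by 5 probe sets, all with negative log2 fold changes, of which 2 passed the test. The brightest had values of 8.43, 8.44 and 8.39 in knockout arrays and 8.82, 8.69 and 8.63 in wild-type arrays (log2 fold change -0.29, SE 0.07, limma adjusted p = 0.0354). The largest fall was in a dim probe set with 5.107, 4.999 and 5.226 in knockout arrays and 5.797, 5.722 and 5.668 in wild-type arrays (log2 fold change -0.62, SE 0.08, limma adjusted p = 0.00269). In 4 of the 5 the groups did not overlap. The call of the brightest Klf6 probe set ended without any of 5 arrays: wild-type replicate 1 (adjusted p = 0.0512), wild-type replicate 2 (adjusted p = 0.0816) and knockout replicates 1, 2 and 3 (adjusted p = 0.104, 0.101 and 0.127).

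Klf7, a factor known for its part in the development of neurons, was read by 4 probe sets, all with positive log2 fold changes between 0.25 and 0.32. The brightest had values of 8.48, 8.51 and 8.45 in knockout arrays and 8.24, 8.23 and 8.12 in wild-type arrays (log2 fold change 0.28, SE 0.06, limma adjusted p = 0.0292). Another had 6.97, 6.96 and 6.92 in knockout arrays and 6.72, 6.62 and 6.56 in wild-type arrays (log2 fold change 0.32, SE 0.07, limma adjusted p = 0.0216). The groups did not overlap in any of the 4, and the same direction was read 4 times from 1 gene. The call of the brightest probe set ended without wild-type replicate 2 or 3 (adjusted p = 0.0638 and 0.0681) and without knockout replicate 1, 2 or 3 (adjusted p = 0.0961, 0.112 and 0.0857).

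The largest change in the family was that of Klf12, a repressor of the CtBP-binding group. Its brightest probe set had values of 7.44, 7.69 and 7.70 (log2) in knockout arrays and 5.15, 6.03 and 5.62 in wild-type arrays. The lowest knockout array was well above the highest wild-type array, and the wild-type arrays were spread more widely (SD 0.15 in the knockout and 0.44 in the wild type, n = 3 each). Klf12 had a log2 fold change of 2.01 with an SE of 0.21 (limma adjusted p = 0.00107) and was 4.03-fold higher. Another Klf12 probe set had 7.05, 7.07 and 7.04 in knockout arrays and 5.61, 5.78 and 5.46 in wild-type arrays (log2 fold change 1.44, SE 0.09, limma adjusted p = 0.00013). A further one had 6.22, 6.14 and 6.20 in knockout arrays and 5.04, 4.75 and 4.78 in wild-type arrays (log2 fold change 1.32, SE 0.09, limma adjusted p = 0.000182). The rise was therefore read by all 3 Klf12 probe sets that lay above the array median, at 2.50-fold to 4.03-fold. The other 2 lay below that median in both groups, at 2.62 to 2.91, and did not pass the test. The rise passed the test under all 14 alternatives; the mean over all 5 probe sets, dim ones included, gave a log2 fold change of 0.92.

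Klf3, the other CtBP-binding member, did not pass the test with any of 7 probe sets. Its brightest had values of 9.35, 9.35 and 9.33 in knockout arrays and 9.40, 9.59 and 9.09 in wild-type arrays, so the knockout arrays lay inside the wild-type range. The log2 fold change was -0.02, with a 95% interval from -0.31 to 0.27. The 7 estimates ran from -0.20 to 0.00.

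The SIN3-binding members showed no change past the threshold. Klf9, a target of glucocorticoid and thyroid hormones, was read by 7 probe sets with log2 fold changes from -0.13 to 0.17, none past the test. Its brightest had values of 12.26, 12.28 and 12.27 in knockout arrays and 12.38, 12.42 and 12.40 in wild-type arrays, where the groups did not overlap but differed by only -0.13 (95% interval -0.27 to 0.00). Klf9 passed with a variance that follows the mean level (adjusted p = 0.00708), and with no other alternative. Klf10, known as TGF-beta inducible early gene 1, had values of 9.36, 9.26 and 9.26 in knockout arrays and 9.30, 9.19 and 9.17 in wild-type arrays. These groups overlapped, and the log2 fold change was 0.07 (95% interval -0.09 to 0.24, limma adjusted p = 0.573). Klf13, studied in T cells and heart, had values of 8.46, 8.56 and 8.57 in knockout arrays and 8.76, 8.68 and 8.50 in wild-type arrays (log2 fold change -0.12, 95% interval -0.32 to 0.08).

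Over all probe sets of the family, 6 of 38 were called higher and 6 lower, against 6.69% and 7.43% of all probe sets. The groups did not overlap in 20 of the 38, against 32.8% of all probe sets. These shares include all dim probe sets and are not matched to the family in level. The 7 KLF probe sets with both group means below the array median included none that passed the test. Where a gene had several brighter probe sets, those past the test went the same way. Probe sets of a gene share their target, so they are not replicates of a condition.

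**Figure D2:**
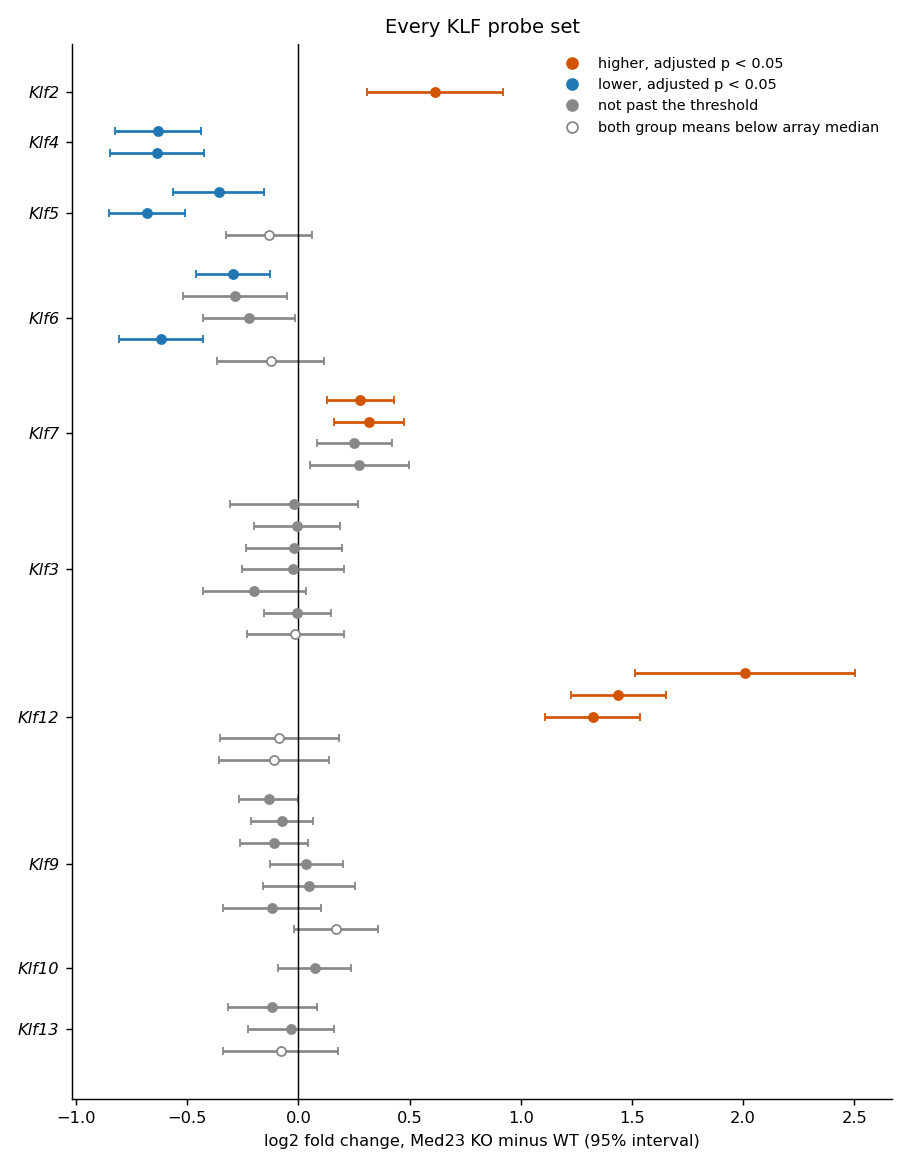
Log2 fold change (Med23 knockout minus wild type, x axis) of each of the 38 KLF probe sets, grouped by gene with the brightest at the top of its group; bars are 95% intervals from limma and open points have both group means below the array median. The 3 filled Klf12 points lie between 1.32 and 2.01, Klf4 lies near -0.63 and the Klf3, Klf9, Klf10 and Klf13 intervals include 0.

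Set apart by role, the naive members and the rest both went in either direction. Of Klf2, Klf4 and Klf5, 1 rose and 2 fell, with a median log2 fold change of -0.36. Of the 7 other members, 2 rose, 1 fell and 4 did not pass the test, with a median of -0.02. Among all genes above the array median, 12.2% were called higher and 14.5% lower. Of Klf4, Klf6 and Klf10, named above as induced by serum or growth factors, Klf4 and Klf6 fell and Klf10 did not pass the test. This trio was not one of the lists fixed for the comparison, and serum induction of the other members was not assessed. The immediate early and serum response list held 21 measured genes, of which 13 fell, none rose and 8 did not pass, with a median of -0.71. The shares over all genes were 8.53% called higher and 10.4% lower. Egr1, an immediate early transcription factor gene, averaged 4.98 ± 0.12 in knockout arrays and 9.86 ± 0.14 in wild-type arrays (log2; SD, n = 3 each). The AP-1 subunit gene Jun fell (log2 fold change -2.06), as did Ccn1 and Ccn2 (-1.78 and -1.38), which encode secreted matrix-associated proteins. These 4 had the largest falls of the list. The smallest called falls were those of the AP-1 genes Fos (-0.58) and Fosl1 (-0.60), beside -0.63 for Klf4 and -0.29 for Klf6.

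Klf5 and Klf12 are adjacent among measured genes on chromosome 14, with 0 other measured genes between them, and they moved in opposite directions. Around Klf12, 5 of the 10 nearest measured genes rose and 1, Klf5, fell, beside 8.53% called higher and 10.4% lower over all genes. The median log2 fold change of these 10 neighbours was 0.47, and 0.55 for the 7 of them above the array median. Toward lower coordinates, Mzt1 (0.49), a component of spindle pole complexes, Bora (0.57), an activator of mitotic kinases, and Dis3 (0.45), a catalytic subunit of the RNA exosome, rose, with limma adjusted p = 0.00678, 0.00318 and 0.00549. Pibf1, next to Klf5, had a log2 fold change of 0.55 and did not pass (limma adjusted p = 0.278). Toward higher coordinates, Commd6 (0.82) and Lmo7 (0.99) rose, with limma adjusted p = 0.00036 and 0.000328. Klf5 was the sole called gene among these to fall, and Klf12 had the largest rise among them.

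Farther along, the direction turned. From Mycbp2 onward (the eighth measured gene from Klf5 toward higher coordinates), Mycbp2 (-0.61), Slain1 (-0.80), Obi1 (-0.88), Ndfip2 (-0.90) and the ERK feedback inhibitor gene Spry2 (-0.92) fell. Toward lower coordinates, Tdrd3 (-0.57, limma adjusted p = 0.00625) also fell, and Diaph3 (0.40) did not pass the test. The stretch of 20 measured genes on each side was chosen after these values were seen. Whether the rise of Klf12 is part of a change that its neighbours share was not tested. In that stretch around Klf12, of 15 genes above the array median 5 rose and 7 fell. The shares among all genes above that median were 12.2% called higher and 14.5% lower. In stretches of the same width around Klf2, Klf3, Klf4, Klf6, Klf7, Klf9, Klf10 and Klf13, which held 20 to 31 such genes each, 3 to 5 rose and 1 to 5 fell. Of the 10 measured genes nearest to each of these members, at most 2 rose and at most 2 fell, with medians between -0.05 and 0.14. Next to Klf2 lie Ap1m1 (log2 fold change 0.17) and Eps15l1 (0.11), and next to Klf4 lie Rad23b (-0.01) and Actl7b (0.28), none of which passed the test. Next to Klf6, Akr1e1 rose by 0.81 on the log2 scale (limma adjusted p = 0.00126) while Klf6 fell.

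**Figure D3:**
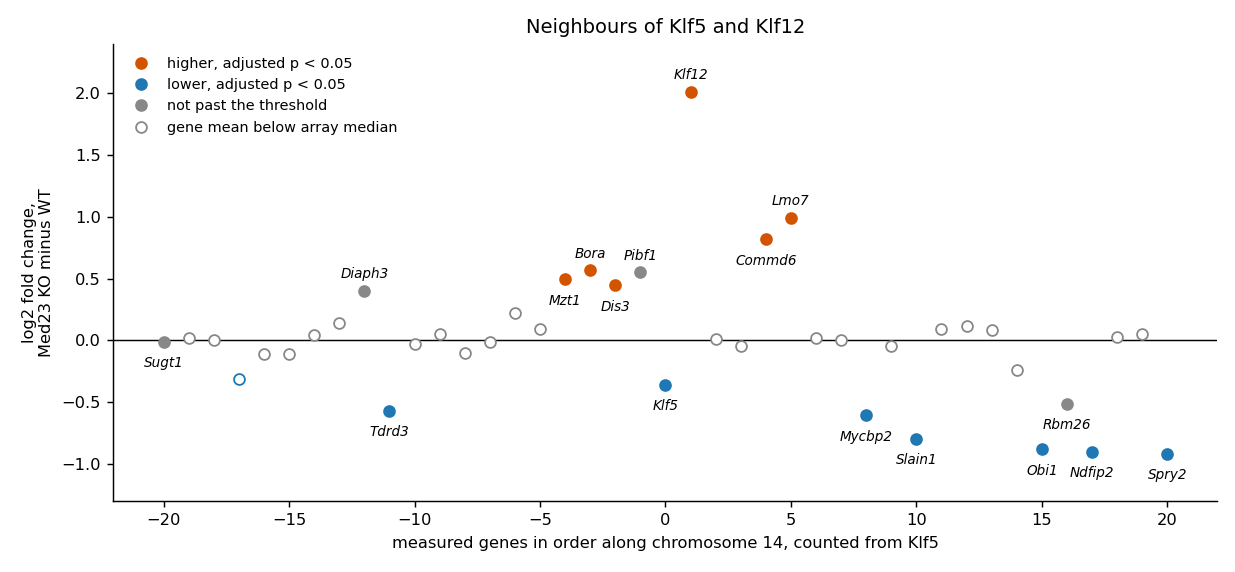
Log2 fold change (Med23 knockout minus wild type, y axis) of measured genes in order along chromosome 14, counted from Klf5 (x axis, number of genes); open points have a mean below the array median. Mzt1, Bora, Dis3, Klf12, Commd6 and Lmo7 rose, Klf5 between them fell, and Tdrd3 and the brighter genes from Mycbp2 on lie below 0.

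The rest of the family was read through 13 of 16 other KLF and SP genes with a probe set of their own. Of these, 1 rose, 3 fell and 9 did not pass the test, with a median log2 fold change of 0.06. The share called over all genes was 18.9%. Klf15, a regulator of glucose and amino acid metabolism in liver and muscle, had values of 7.997, 7.969 and 7.972 in knockout arrays and 7.350, 7.239 and 7.106 in wild-type arrays (log2 fold change 0.75, SE 0.08, limma adjusted p = 0.00104). Klf16 averaged 8.07 ± 0.04 in knockout arrays and 8.41 ± 0.05 in wild-type arrays (SD, n = 3 each), lower with a log2 fold change of -0.35 (limma adjusted p = 0.0111). Sp5, a WNT target, and Sp6, an epithelial factor, fell (log2 fold changes -0.57 and -0.67, limma adjusted p = 0.0348 and 0.0413). For Sp6, 2 of 4 probe sets passed as lower. Sp1 and Sp3, the general GC-box factors, had log2 fold changes of 0.03 and 0.25 and did not pass, although 1 of 3 Sp1 probe sets passed as lower. Klf1, Klf11, Klf14, Klf17, Sp4, Sp7 and Sp8 did not pass with their brightest probe set, although 1 of 2 Sp4 probe sets passed as higher.

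Of 16 cofactors and regulators of KLF proteins, 1 rose, 1 fell and 14 did not pass the test, beside 26.7% called among all genes above the array median. Sap30, a subunit of SIN3 complexes, rose by 0.38 (limma adjusted p = 0.00556) and Senp3, a SUMO protease gene, fell by 0.53 on the log2 scale (limma adjusted p = 0.0033). The corepressor genes Ctbp1 and Ctbp2 had log2 fold changes of -0.24 and 0.09 and Sin3a 0.13, none past the test. The list's median was 0.04.

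Genes of pathways known to induce KLF genes were also listed. The LIF and STAT3 list also holds genes downstream of STAT3, such as Gbx2 and Socs3. Of 13 genes of the LIF and STAT3 pathway, which induces Klf4, 1 rose, 2 fell and 10 did not pass (median log2 fold change -0.04). Among all genes above the array median, 26.7% were called. Tyk2, a Janus kinase gene, and the transcription factor gene Gbx2 fell (log2 fold changes -0.66 and -0.51), while Socs3, a feedback inhibitor, rose by 0.34 (limma adjusted p = 0.000857, 0.00708 and 0.0295). These calls were made by 1 of 2 Tyk2 probe sets, the 1 Gbx2 probe set and 2 of 3 Socs3 probe sets. Stat3 had a log2 fold change of 0.22 and did not pass (limma adjusted p = 0.0727). Of 8 genes of the MEK5, ERK5 and MEF2 pathway, known in endothelial cells as the route to Klf2, 2 rose and 1 fell (median 0.08). Over all genes, 18.9% were called. The kinase gene Map3k2 averaged 6.90 ± 0.05 in knockout arrays and 5.24 ± 0.44 in wild-type arrays (log2; SD, n = 3 each; limma adjusted p = 0.00198), and 2 of its 3 probe sets passed. Mef2b averaged 7.89 ± 0.09 in knockout arrays and 6.47 ± 0.21 in wild-type arrays (limma adjusted p = 0.000354). Mef2d fell by 0.48 on the log2 scale, with 1 of its 3 probe sets past the test. The ERK5 gene Mapk7 had a log2 fold change of -0.19 and did not pass.

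Of 15 genes that KLF factors are known to bind or regulate in ES cells, 2 rose, 3 fell and 10 did not pass (median log2 fold change 0.09), beside 12.2% called higher and 14.5% lower among all genes above the array median. Fbxo15 rose by 1.002 and Tcl1, a coactivator of AKT, by 0.49 (limma adjusted p = 0.000263 and 0.0134). Lefty1, a Nodal antagonist gene with KLF4-bound promoter elements, fell by 2.41 on the log2 scale (limma adjusted p = 6.13e-05), and Tdgf1, a Nodal coreceptor gene, had a log2 fold change of -0.28 (limma adjusted p = 0.0454). Nanog, Esrrb and Tbx3 had log2 fold changes of 0.23, 0.37 and 0.16 and did not pass the test.

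**Figure D4:**
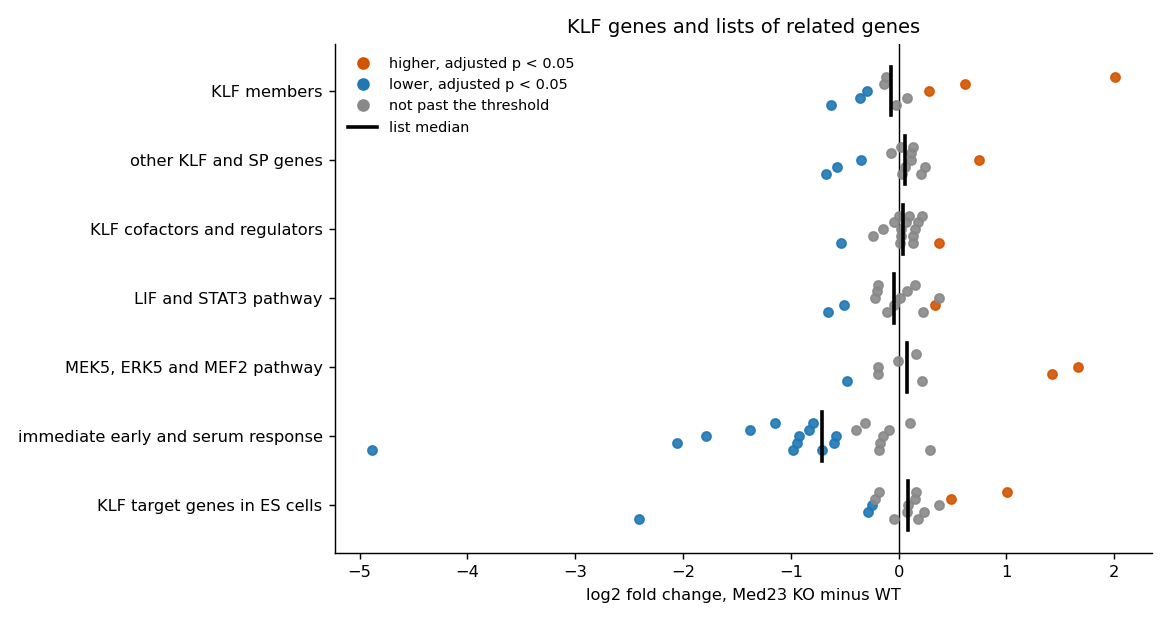
Log2 fold change (Med23 knockout minus wild type, x axis) of each measured gene in the KLF family and in 6 lists of related genes; black bars are list medians. The immediate early list has a median of -0.71, and the medians of the other lists lie between -0.07 and 0.09.

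Among markers of other cell types, most endoderm genes fell, whereas the trophoblast, fibroblast and neural lists held fewer calls. The shares over all genes were 8.53% called higher and 10.4% lower. Of 14 endoderm markers, 12 fell and none rose, with a median log2 fold change of -2.23. Their summed linear level was 5036 to 5068 in knockout arrays and 8868 to 10982 in wild-type arrays, and its brightest gene was Apoe, a lipid carrier gene, with a log2 fold change of -0.52. Of 10 trophoblast markers, 4 fell and none rose, with sums of 1301 to 1380 in knockout arrays and 3100 to 3454 in wild-type arrays. Those that fell were the keratin genes Krt7, Krt8 and Krt18 and the gene Ascl2 (log2 fold changes -1.91, -2.52, -1.67 and -0.35). Krt8 and Krt18 were the brightest of the list in wild-type arrays (means 10.55 and 9.95, log2). The transcription factor genes Cdx2, Eomes, Elf5, Tfap2c, Gata3 and Hand1 did not pass the test. The endoderm genes Ttr and Afp and the trophoblast genes Cdx2 and Elf5 lay below the array median in both groups. Klf4, Klf5 and Klf6 are also expressed in epithelial and extraembryonic cells, and the part of these cells in the KLF falls was not tested. Of 10 fibroblast and feeder markers, 2 fell and 1 rose, and 7 of them, the collagen genes Col1a1, Col1a2 and Col3a1 included, lay below that median in both groups. Of 8 measured neural markers, 1 rose (Pax6) and 3 fell, with sums of 659 to 678 in knockout arrays and 548 to 658 in wild-type arrays. In such bulk samples, fewer cells of a type and less RNA per cell cannot be told apart. Without wild-type replicate 1, the log2 fold changes were 0.73 for Klf2, -0.60 for Klf4, -0.27 for Klf5 and 1.79 for Klf12, and these 4 calls held, whereas that of Klf6 did not (-0.24, limma adjusted p = 0.0512).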

How the data were processed

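Trizol-extracted total RNA was labelled as biotinylated cRNA and hybridised to Affymetrix arrays, per the labels' protocols. The authors deposited log2 expression values in a single table of 6 arrays; that unit follows from the spread of values (array medians 4.61 to 4.64). RMA and MAS5 are named without a role, per the submitters' processing notes. Values were used as deposited, with 0 columns of other samples. Having 3 arrays per group limits precision.

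After 64 control probe sets were set aside from 45101, symbols came from the platform annotation (34945 probe sets with 1 symbol, 932 with several, 9160 with none) and were updated by Entrez identifier (34741 matched) to a RefSeq table of GRCm38.p6. The probe set with the highest mean represented a gene.

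All 45037 remaining probe sets were fitted in limma 3.58.1 with R 4.3.3 (lmFit, eBayes; two-sided; Benjamini-Hochberg over the whole table; threshold 0.05), giving knockout minus wild-type changes. The fit was tested on simulated data. Groups came from sample titles. The members and lists were chosen with earlier results of these data known. Genes were named by rule: all members, the other KLF and SP genes, genes adjacent to members, and up to 4 most changed called genes of each list. Eif2s3y, listed genes that did not pass and the genes farther along chromosome 14 were chosen after their values were seen.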

Additional observations from a re-analysis of the deposited data

How the results depend on the processing

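Klf4 (lower) and Klf12 (higher) passed the test in each of 14 alternatives: quantile normalization, centring on array medians, a filter on low values, a variance trend, array weights, a replicate block, leaving out each of 6 arrays, the mean of all probe sets and the next brightest probe set. The counts of member genes called were 3 higher and 3 lower. Leaving out 1 array gave 1 to 3 member genes higher and 1 to 3 lower, 3 to 6 member probe sets higher and 4 to 7 lower, and 1497 to 3494 probe sets higher over the whole array, against 3013 with all arrays. With fewer arrays the fit has fewer residual degrees of freedom. Klf2, Klf5, Klf6 and Klf7 kept their direction in all their alternatives, but their calls ended in 4 of 13, 5 of 14, 7 of 14 and 6 of 14 alternatives; with the next brightest probe set Klf6 had an adjusted p of 0.111. The Klf3 log2 fold change reversed to 0.092 without wild-type replicate 2, within its interval. The Klf2 minus Klf4 change lay between 1.17 and 1.33 when 1 array was left out.

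No pairing by replicate number was seen: deviations of same-numbered arrays from their group means correlated at -0.25, -0.16 and 0.02. For differently numbered arrays the correlations ran from -0.22 to 0.25. With 3 arrays per group, this check cannot exclude a pairing. With the replicate block, 1 member gene was called lower and 1915 probe sets higher, and the calls of Klf5, Klf6 and Klf7 ended (adjusted p = 0.0555, 0.0791 and 0.077). Detection calls were not used, so low signals cannot be set against background.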
